A study of Mus musculus with 7 samples.

Results

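Named processed pseudogenes were followed in RNA from mouse granulocytes with and without Alox15, which encodes arachidonate 15-lipoxygenase, an enzyme that oxygenates polyunsaturated fatty acids. They were taken as the rows of the count table whose gene symbol ends in -ps, or in -ps and a number, and whose counts summed to 20 or more over the 7 libraries, with Impdh2-ps left out. The rule gave 169 genes of 51789 in the table. Members were thus selected on their summed count, so how much was counted in all is a description and not a finding. Of 1496 rows with such a symbol, 1193 had no count and 133 had 1 to 19. Those nearest inside the threshold included Tpt1-ps6 and Vma21-ps with 20 counts each, and the nearest outside were Ndufab1-ps and Vamp7-ps with 18 each and Klra13-ps and Mup-ps22 with 17 each. For each member the parent is the gene whose symbol stands before -ps. It was in the table for 149 members, which share 76 parents, and was not for 20.

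The libraries were Alox15 knockout (KO, 3 libraries) and Alox15 wild type (WT, 4 libraries), all labelled granulocytes and untreated. The QuantSeq kit used on the polyA RNA sequences 1 tag close to the 3′ end of a transcript, so counts were not divided by gene length. The tissue, the strain, the age and the sex of the animals, the deleted part of Alox15 and the sorting are not given in the sources used here, and the labels do not say that replicates came from separate animals. Levels are CPM, the counts scaled to the TMM-adjusted library size.

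A processed pseudogene is a copy of a messenger RNA that was reverse transcribed and put back into the genome, so it has no introns, often carries a stretch of A where the poly(A) tail was copied, and usually lacks the parent's promoter. Unprocessed pseudogenes are duplicated genes that keep introns. Genes that are strongly expressed in the germ line, above all those of ribosomal proteins, have left many processed copies in mammalian genomes. A recent copy differs from its parent at few bases, and a short read from one can match both. How reads with several matches were treated is not given in the sources used here. A count for a pseudogene below is the count assigned to that row and does not by itself show that the locus is transcribed.

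The annotation (GENCODE M21, built on GRCm38, the same build as mm10) bore out the name only in part. It typed 134 of the 169 members as processed pseudogenes and 6 as transcribed processed pseudogenes. The remaining 29 were 15 unprocessed pseudogenes, 8 protein-coding genes, 2 unitary and 2 polymorphic pseudogenes and 2 long noncoding RNAs. Among the protein-coding ones were Rpl10-ps3, Rps12-ps3, Rpl9-ps6 and Ftl1-ps1. A single exon was annotated for 147 members. The members lay on 20 chromosomes, 22 of them on X and 0 on Y. An intron of a gene on the same strand held 21, such as Rpl17-ps8 in Heph and Rpl36a-ps2 in Ddah1, and 43 had a gene on the other strand. The strand setting of the counting is not given in the sources used here. Without it, whether reads of the antisense gene entered the counts of these 43 cannot be told. On the same strand, Ftl1-ps1, Rpl19-ps1, Rpl19-ps11, Rpl19-ps12, Lgals1-ps2 and H2-T-ps share exon bases with another annotated gene, so their counts are uncertain too.

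The sequences below, read from the GENCODE M21 transcripts on GRCm38, show how little a read has to go by. Of 149 pairs, 147 aligned. The median identity was 98.8%, and 62 pairs had at least 99%, 75 had 95 to 99% and 10 had less. For 18 members the whole annotated transcript lay inside a transcript of the parent. Rps23-ps1, which had the highest summed count, is one of them. The 120-base stretch shown is from Rps23-ps1 (chr3:37715045-37715164, plus strand) and from the coding sequence of Rps23 (chr13:90924557-90924676, plus strand), and no letter differs.
Rps23-ps1: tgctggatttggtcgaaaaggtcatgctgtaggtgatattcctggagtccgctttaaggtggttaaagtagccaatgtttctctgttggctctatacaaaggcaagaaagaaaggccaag
Rps23: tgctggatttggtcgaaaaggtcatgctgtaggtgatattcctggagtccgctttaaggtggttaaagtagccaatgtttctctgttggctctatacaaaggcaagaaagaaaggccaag

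Rpl35a-ps2 stands for a set of 4 copies with a single transcript sequence, and differs from Rpl35a at 1 base in the whole alignment. The stretch is from Rpl35a-ps2 (chr1:181242115-181242215, minus strand) and Rpl35a (chr16:33057484-33058720, plus strand), with the difference, G51A, in capitals. Here and below the parent's base comes first, and positions count from 1 at the 5′ end of the stretch. Coordinates of the stretches of Rpl35a, Rpl39, Rps12 and Rpsa run across introns.
Rpl35a-ps2: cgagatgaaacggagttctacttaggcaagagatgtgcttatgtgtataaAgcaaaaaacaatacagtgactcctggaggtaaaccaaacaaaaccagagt
Rpl35a: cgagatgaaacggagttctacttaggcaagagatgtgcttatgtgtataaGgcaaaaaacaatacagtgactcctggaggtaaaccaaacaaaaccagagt
Rpl39-ps (chr15:102635048-102635167, plus strand) differs from Rpl39 (chrX:37082728-37084082, minus strand) at T87C, in capitals.
Rpl39-ps: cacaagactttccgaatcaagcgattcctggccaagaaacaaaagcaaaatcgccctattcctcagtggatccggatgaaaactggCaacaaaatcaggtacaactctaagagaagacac
Rpl39: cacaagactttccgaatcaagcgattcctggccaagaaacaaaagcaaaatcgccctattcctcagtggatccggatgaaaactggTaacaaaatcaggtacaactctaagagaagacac
Rpsa-ps12 (chr4:149143077-149143196, minus strand) has more differences from Rpsa (chr9:120129213-120130173, plus strand), which are G17A, T22C, T58A, C109T and C118A in the stretch shown, in capitals.
Rpsa-ps12: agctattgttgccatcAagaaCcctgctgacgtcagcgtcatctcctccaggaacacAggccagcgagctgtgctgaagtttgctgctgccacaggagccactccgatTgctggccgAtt
Rpsa: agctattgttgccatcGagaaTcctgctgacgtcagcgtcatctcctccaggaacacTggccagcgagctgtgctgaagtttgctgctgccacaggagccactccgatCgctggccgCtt

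Rps12, a protein of the small ribosomal subunit, gave the most members, 16 of 23 rows with its name. Several are near-copies of one another on the X chromosome. The first 150 coding bases are shown for Rps12-ps11 (chrX:124470208-124470357, minus strand) and Rps12-ps6 (chrX:124349974-124350123, minus strand), with differences from Rps12 (chr10:23785986-23787007, minus strand) in capitals. Rps12-ps11 carries T21A, C45G, C72A, C97T and C135T, and Rps12-ps6 carries these and also G10A and A103C.
Rps12-ps11: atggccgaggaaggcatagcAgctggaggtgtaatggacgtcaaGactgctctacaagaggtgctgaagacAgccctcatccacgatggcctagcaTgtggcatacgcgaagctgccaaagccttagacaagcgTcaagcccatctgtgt
Rps12-ps6: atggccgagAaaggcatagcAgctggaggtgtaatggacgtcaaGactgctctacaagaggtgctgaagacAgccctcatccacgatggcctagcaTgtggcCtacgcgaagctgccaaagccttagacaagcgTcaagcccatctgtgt
Rps12: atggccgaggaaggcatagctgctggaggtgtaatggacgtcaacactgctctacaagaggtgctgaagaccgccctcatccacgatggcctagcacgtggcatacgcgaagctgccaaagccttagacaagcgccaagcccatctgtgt

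A run of at least 10 A closed the annotated transcript of 8 members (4.73%), against 748 of all 141767 transcripts (0.528%). That background covers transcripts of all kinds, and processed pseudogenes outside the members were not counted apart. The 8 were Rpl10-ps3 with 29, Mrpl23-ps1 with 42, Rpl9-ps6, Gpx4-ps2 and Rps26-ps1 with 20 each, Rps13-ps1 and Rpl36-ps12 with 13 each and Ftl1-ps1 with 12. The primer of a 3′ tag kit anneals to runs of A, so 3 of these ends are shown. Each is 30 bases, with the first bases of the run in capitals, above the last 30 bases of the parent's transcript. They are from Rpl10-ps3 (chr9:50344212-50344241, minus strand) and Rpl10 (chrX:74273106-74273135, plus strand), Mrpl23-ps1 (chr2:74591354-74591383, minus strand) and Mrpl23 (chr7:142540718-142540747, plus strand), and Gpx4-ps2 (chr10:45876055-45876084, plus strand) and Gpx4 (chr10:80056410-80056439, plus strand). Whether the genome continues with A past the other members' ends was not analysed here.
Rpl10-ps3: tcaagttcgcttAAAAAAAAAAAAAAAAAA
Rpl10: aataataaaatctcgcatcaagttcgctta
Mrpl23-ps1: ttctttgtggagAAAAAAAAAAAAAAAAAA
Mrpl23: gcccaaataaaaattctttgtggagaaaga
Gpx4-ps2: tgtagaaatgtgAAAAAAAAAAAAAAAAAA
Gpx4: tgccttgtgggaataaaatgtagaaatgtg

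To see how far reads could tell the copies apart, each member's transcript was cut into all its 50-base words, and each word was looked up in the transcripts of all other genes. The median member had 33.2% of words found nowhere else. In 38 members no word was their own (36 with 100-base words), and these held 43.8% of all member counts. They include Rps23-ps1, Rpl31-ps8, Rpl28-ps1, Rpl27-ps3, Rps12-ps3 and Rpl10a-ps1. All words were unique in 8: Ndufb1-ps, Tmem250-ps, Ppp4r1l-ps, Slc2a4rg-ps, Zfp862-ps, Tas2r142-ps5, Cdk3-ps and Wdr46-ps. In 4 sets of members (14 genes) the counts were equal in all 7 libraries, and these were the same 4 sets that share 1 transcript sequence: Rpl35a-ps2, Rpl35a-ps3, Rpl35a-ps4 and Rpl35a-ps6; Rps12-ps11, Rps12-ps12, Rps12-ps13, Rps12-ps14 and Rps12-ps15; Rps12-ps6, Rps12-ps17 and Rps12-ps18; and Rps19-ps1 and Rps19-ps2. Such members are not separate measurements.

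Some names did not match the sequence. Rpl36a-ps3 was 87.5% identical to Rpl36a, and 81.6% of its words lay in Rpl36al. Rpl18-ps1 did not align to Rpl18. Lgals1-ps2 did not align to Lgals1, the gene of galectin 1, and all its words lay in Gm49486, which overlaps it. Among the 20 with no parent in the table, Amd-ps3 had 94.8% of its words in Amd1, which encodes the decarboxylase at the start of polyamine synthesis, Mrip-ps had 88.8% in Mprip, and Gstp-ps had 71.1% in Gstp2, a glutathione transferase gene.

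The 7 libraries held 3228292 to 5657192 counts, and a count of 0 allows up to 3 counts, or 0.4698 to 0.919 CPM on the TMM-adjusted sizes. Neutrophil markers were all detected (12 of 12), with a summed level of 2029 to 23156 CPM in knockout and 2587 to 27026 CPM in wild type, lowest in KO 3 and WT 2. T and NK cell markers (12 of 12) summed to 388 to 970.4 CPM in knockout and 324 to 682 CPM in wild type, highest in KO 3 and WT 2. Of 7 eosinophil, basophil and mast cell markers, Epx, Mcpt8 and Fcer1a had no count. Siglecf, Ccr3 and Cpa3 had counts in all 7 libraries and Prg2 in WT 1 alone. This list summed to 6.62 to 27.2 CPM in knockout and 13.1 to 26.0 CPM in wild type. The summed levels of these lists, and of those for B cells, macrophages and monocytes, red cells and stroma, overlapped between the groups. The libraries described as KO 2 and KO 3 have another stem in their description than the other 5, so stem and genotype are partly entangled. A fit with the stem as a covariate thus compares KO 1 alone with wild type. Xist, the RNA of the inactive X, stood at 1.75, 382 and 102 CPM in KO 1 to 3, against 0.896 to 6.11 CPM in WT 1 to 4. KO 2 and KO 3, the libraries with the other stem, were thus highest for Xist, and the sex of the animals was not tested. The summed level of the 22 X-linked members was 179, 341 and 427 CPM in KO 1 to 3, against 222 to 447 CPM in WT 1 to 4, so the groups overlapped.

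The members took 347314 of 31979006 counts, or 1.09%. Members named for cytosolic ribosomal protein genes, called ribosomal copies below, were 109 of the 169 and held 92.5% of the member counts. The 8 highest members held 68.8% and the 2 highest 30.7%. The median member had 98 counts over all libraries. There were 33 members with 1000 or more, 51 with 100 to under 1000 and 85 with 20 to 99.

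Summed over the members, the level was 7535, 9310 and 17538 CPM in KO 1 to 3, against 6276, 11814, 9584 and 11495 CPM in WT 1 to 4. The mean was 11461 ± 5337 CPM in knockout and 9792 ± 2542 CPM in wild type (SD, n = 3 and 4), and the groups overlapped. Without KO 3, the highest library, the knockout mean was 8422 ± 1255 CPM (SD, n = 2). As a share of the library the members made up 0.738, 0.942 and 1.68% of counts in KO 1 to 3, against 0.582, 1.33, 0.969 and 1.11% in WT 1 to 4. The ribosomal protein parents moved alongside, with a summed level of 43243, 43628 and 81946 CPM in KO 1 to 3, against 34216, 60224, 61999 and 63175 CPM in WT 1 to 4. Out of the ribosomal counts of copies and parents together, the copies took 13.6, 16.5 and 16.9% in KO 1 to 3, against 14.1, 15.4, 12.4 and 14.2% in WT 1 to 4. KO 3 was thus highest for copies and parents alike and WT 1 lowest for both. In these bulk samples fewer cells of a type and less RNA per cell cannot be told apart. KO 3 was also the library with the lowest neutrophil and highest T and NK marker level, whose part in these sums was not tested.

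**Figure D1:**
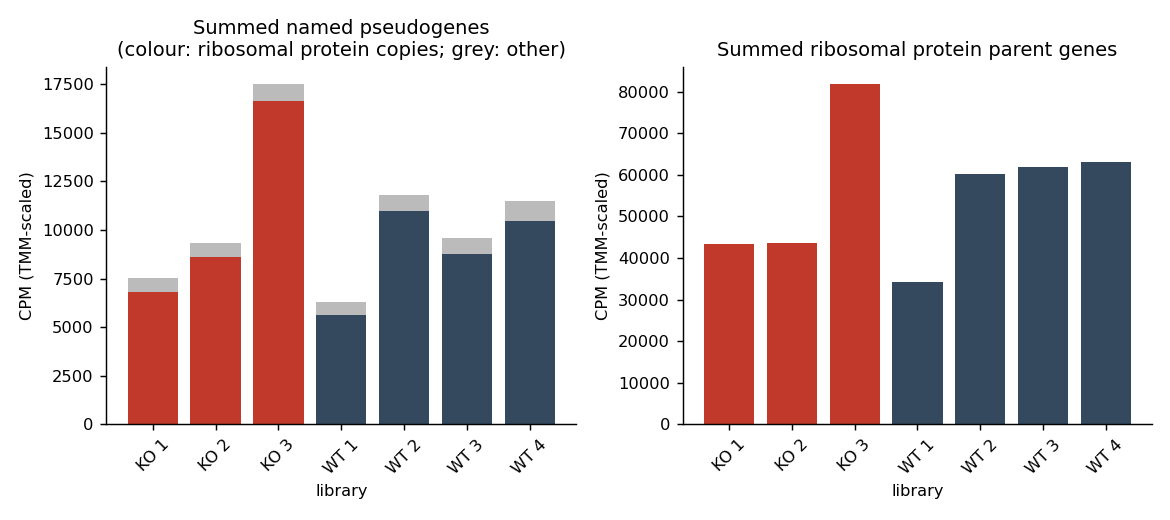
Summed level (CPM on TMM-scaled library sizes) per library, left for the named pseudogenes, with ribosomal protein copies in colour and the others in grey, and right for the ribosomal protein parents; red bars are knockout and dark bars wild type. KO 3 reached 17538 CPM and WT 1 the lowest, 6276 CPM.

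Detection was patchy. All 7 libraries had counts for 81 members, and 88 had none in at least 1 library. Among genes with 20 to 99 counts, 83.5% of members and 83.4% of the other rows were at 0 somewhere. From 100 to under 1000 counts the shares were 31.4% of members and 7.91% of the other rows, and from 1000 up they were 3.03% (1 member, Amd-ps3) and 0.114%. Amd-ps3 had 254, 133 and 389 counts in KO 1 to 3, against 0, 623, 617 and 0 counts in WT 1 to 4. Rps12-ps4 had 301, 0 and 238 counts in KO 1 to 3, against 0, 98, 0 and 0 counts in WT 1 to 4, while Rps12 itself was at 606 CPM or more in each library. Llph-ps2, a copy of a gene for a nucleolar protein, had 0, 48 and 119 counts in KO 1 to 3, against 52, 0, 48 and 20 counts in WT 1 to 4. In both groups, then, a member with ample counts in some libraries had none in others. Counts in 1 library alone were found for 6 members: Rpl7a-ps11 (167 counts in WT 3), Rpl15-ps3 (57 in WT 2), Slc22a13b-ps, Olfr188-ps1 and Trmt112-ps1 (25, 23 and 22 in KO 1) and Tpt1-ps6 (20 in WT 4).

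The share of the pair, meaning the count of the pseudogene out of pseudogene and parent together, does not depend on the scaling of the library. Over the 149 pairs its median was 0.602%. It exceeded 50% in 7 pairs, was 10 to 50% in 15, 1 to 10% in 41 and below 1% in 86. Wilson 95% intervals of single libraries are given as their largest half-width. They cover counting error only, and the labels name no molecular identifiers. Error in assigning reads that match copy and parent alike is not in them.

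Rps23-ps1 (chromosome 3, 37714740 to 37715164, plus strand) is a copy of Rps23, whose protein sits at the decoding centre of the small ribosomal subunit. It had 1108, 949.5 and 4169 CPM in KO 1 to 3, against 956, 2071, 1199.8 and 2826 CPM in WT 1 to 4. The parent Rps23 had 589.6, 332 and 1299 CPM in KO 1 to 3, against 400.4, 739, 841 and 1279.5 CPM in WT 1 to 4. The copy was the higher of the pair in all 7 libraries, at 71.9 ± 5.82% in knockout and 67.9 ± 6.44% in wild type (SD, n = 3 and 4) of the pair, with a half-width of at most 1.35 points. Both members of the pair were highest in KO 3 and low in KO 2 and WT 1. Its annotated end aligned 274 bases before the 3′ end of the parent transcript compared.

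Rpl10-ps3 (chromosome 9, 50344201 to 50344968, minus strand), a copy of the X-linked Rpl10 for one of the last proteins to join the large subunit, took almost the whole pair. It had 1274, 776 and 2013 CPM in KO 1 to 3, against 944, 1455, 1169 and 1470.4 CPM in WT 1 to 4. Rpl10 had 14.8, 59.4 and 139 CPM in KO 1 to 3, against 12.5, 30.9, 198 and 289 CPM in WT 1 to 4. The share was 98.9, 92.9 and 93.6% in KO 1 to 3, against 98.7, 97.9, 85.5 and 83.6% in WT 1 to 4, with a half-width of at most 1.03 points, and the groups overlapped. From the highest to the lowest library the parent ranged 22.99-fold, the copy 2.596-fold and their sum 2.58-fold. The copy aligned at 100% to the last base of the parent transcript and only 3.89% of its words were its own, those that reach into the run of A.

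Mrpl23-ps1 had the same build, an identical copy followed by A. Mrpl23 encodes a protein of the mitochondrial ribosome. The copy had 54.6, 50.2 and 82.4 CPM in KO 1 to 3, against 40.9, 91.6, 53.04 and 33.4 CPM in WT 1 to 4. The parent had 0.194, 14.4 and 10.5 CPM in KO 1 to 3, against 4.48, 10.2, 10.9 and 5.295 CPM in WT 1 to 4. Its share of the pair was 99.6, 77.7 and 88.7% in KO 1 to 3, against 90.1, 90, 82.9 and 86.3% in WT 1 to 4, with a half-width of at most 6.51 points. The parent ranged 74.1-fold over the libraries and the sum 2.63-fold.

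Rpl17-ps3 and Rpl17-ps8 share the parent Rpl17, a large subunit protein by the tunnel through which the new chain leaves. Rpl17-ps3 (chromosome 12, 67510756 to 67511311, plus strand) had 425, 1166 and 226 CPM in KO 1 to 3, against 366, 653, 833 and 66.7 CPM in WT 1 to 4. Rpl17-ps8, inside an intron of Heph, had 135, 266 and 254 CPM in KO 1 to 3, against 151, 189.6, 321 and 231 CPM in WT 1 to 4. Rpl17 had 221, 100.2 and 377 CPM in KO 1 to 3, against 122, 308, 314 and 267 CPM in WT 1 to 4. Rpl17-ps3 stood above the parent in 5 libraries and below it in KO 3 and WT 4, and its share of the pair was 65.8, 92.1 and 37.4% in KO 1 to 3, against 74.95, 67.97, 72.6 and 20.02% in WT 1 to 4. The shares thus covered much the same range in both groups. All 10 pseudogene rows named for Rpl17, of which 3 are members, were summed with the parent. The sum was 782, 1571 and 862 CPM in KO 1 to 3, against 649, 1156, 1468 and 565 CPM in WT 1 to 4. Its range was 2.78-fold, against 17.5-fold for Rpl17-ps3 alone.

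The next 3 pairs in which the copy exceeded its parent were smaller. Gpr137b-ps, an unprocessed pseudogene with 7 exons named for a lysosomal membrane protein gene, had 85.5, 59.1 and 9.74 CPM in KO 1 to 3, against 72.01, 19.6, 43.5 and 65.1 CPM in WT 1 to 4. Gpr137b had 13.03, 14.7 and 4.67 CPM in KO 1 to 3, against 33.8, 2.51, 8.14 and 3.44 CPM in WT 1 to 4. Only 22.4% of the transcript of Gpr137b-ps aligned to the parent and 80.1% of its words were its own.

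Apoo-ps, whose whole sequence lies in Apoo, a gene for a protein of the mitochondrial cristae, had 18.1, 16.5 and 24.9 CPM in KO 1 to 3, against 13.1, 22.7, 11.5 and 15.1 CPM in WT 1 to 4. Apoo was at 0 in KO 1 and KO 2, had 15.97 CPM in KO 3 and had 6.57, 34.8, 11.3 and 11.9 CPM in WT 1 to 4. Gad1, the gene of the enzyme that makes the transmitter GABA, was at 0 in all 7 libraries, while Gad1-ps had 9, 3 and 3 counts in KO 1 to 3, against 5, 0, 7 and 0 counts in WT 1 to 4. The sequence of Gad1-ps was 94.2% identical to Gad1, with 93.6% of its words its own.

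Rpl23a-ps3 (chromosome 14, 34170655 to 34171122, plus strand) came next by summed count. Rpl23a is a large subunit protein at the mouth of the exit tunnel. The copy had 811, 622 and 1698 CPM in KO 1 to 3, against 575, 823, 868 and 1024 CPM in WT 1 to 4, and took 35.9 ± 11.2% in knockout and 30.3 ± 2.01% in wild type (SD, n = 3 and 4) of the pair. Its share was 48.3% in KO 3 and 26.4 to 33.1% in the other 6 libraries.

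Rpl31-ps8 (chromosome 15, 90764279 to 90764656, minus strand) lies wholly inside Rpl31, another protein near the exit tunnel. It had 465, 239 and 2369 CPM in KO 1 to 3, against 478, 792, 365 and 1370.1 CPM in WT 1 to 4. The copy was above its parent in KO 3 and WT 4, where it took 61.998% and 54.4% of the pair. The lowest share was 28.9%, in KO 2, so the groups overlapped.

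Rpsa-ps12 (chromosome 4, 149142497 to 149143388, minus strand) is a copy of Rpsa, a small subunit protein also known as a laminin receptor. It had 375, 2615 and 445 CPM in KO 1 to 3, against 341, 393, 882 and 176 CPM in WT 1 to 4. KO 2 stood apart, with 53.0% of the pair against 9.18 to 29.4% in the other 6 libraries. Rpsa was not highest there, at 1274, 2318 and 2741 CPM in KO 1 to 3, against 1038, 1999, 2117 and 1739.7 CPM in WT 1 to 4. Rpsa-ps12 was 97.3% identical to Rpsa and 62.3% of its words were its own.

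Rpl39-ps (chromosome 15, 102635038 to 102635188, plus strand) copies Rpl39, a very small protein that lines the exit tunnel, and had 341, 400.0 and 1129 CPM in KO 1 to 3, against 399.5, 758, 439 and 639 CPM in WT 1 to 4. It took 36.9 ± 8.81% in knockout and 29.8 ± 10.1% in wild type (SD, n = 3 and 4) of the pair. Rpl28-ps1 (chromosome 1, 128038569 to 128038982, plus strand) lies wholly inside Rpl28, a large subunit protein found in eukaryotes, and had 313, 94.6 and 884 CPM in KO 1 to 3, against 151, 672, 253 and 586 CPM in WT 1 to 4. It took 30.1 ± 12.4% in knockout and 29.4 ± 10.3% in wild type (SD, n = 3 and 4) of the pair, and both shares overlapped between the groups.

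Rpl27-ps3, another copy that lies wholly inside its parent, is named for Rpl27, a protein of the large subunit. It had 261, 146 and 347 CPM in KO 1 to 3, against 159, 768, 516 and 457 CPM in WT 1 to 4. Rpl27 had 573, 600.0 and 909 CPM in KO 1 to 3, against 453, 571, 839 and 828 CPM in WT 1 to 4. The share of the pair was 31.3, 19.6 and 27.6% in KO 1 to 3, against 25.9, 57.4, 38.1 and 35.6% in WT 1 to 4. Level and share overlapped between the groups through WT 1, and the log2 fold change of the copy was -0.92 ± 0.51 (SE), unadjusted p = 0.105 (edgeR, adjusted p = 0.99995).

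**Figure D2:**
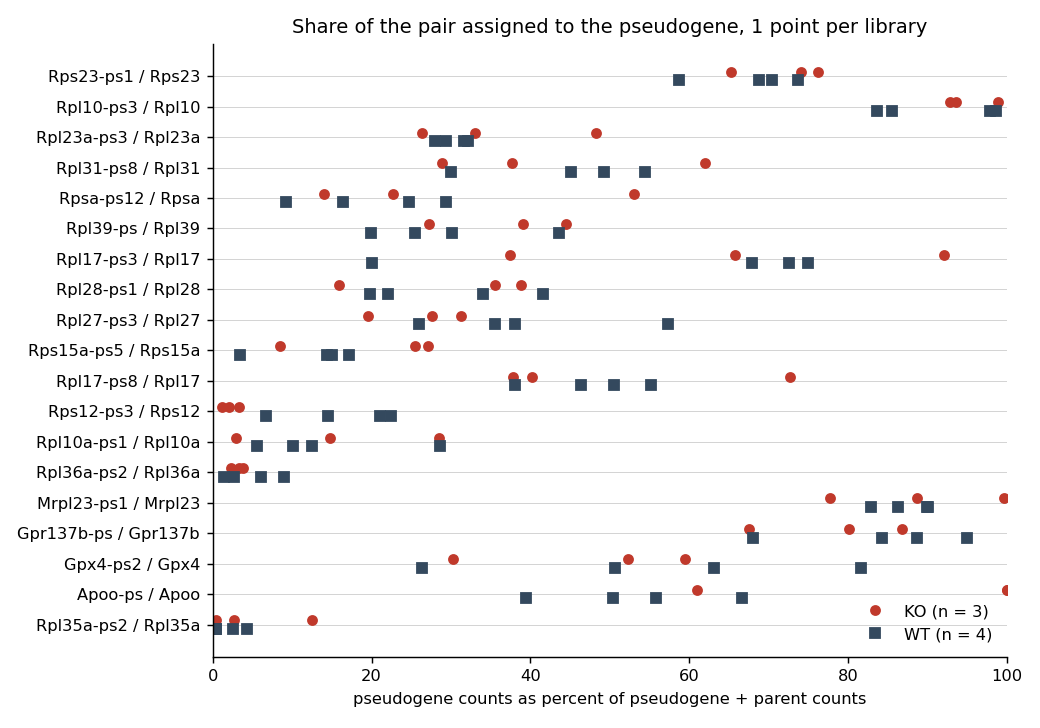
Count of the pseudogene as a percent of pseudogene plus parent, 1 point per library (red circles knockout, n = 3; dark squares wild type, n = 4), for leading pairs. Rpl10-ps3 and Mrpl23-ps1 hold most of their pair everywhere, Rpl17-ps3 runs from 20.02 to 92.1%, and Rps12-ps3 is the pair drawn whose groups do not overlap.

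Copies of 2 genes tied to lipid peroxides and iron were taken as well, chosen after their values were seen. Gpx4 encodes the enzyme that reduces lipid hydroperoxides and holds back ferroptosis. Gpx4-ps2 (chromosome 10, 45875291 to 45876086, plus strand) had 21.8, 41.3 and 33.3 CPM in KO 1 to 3, against 23.01, 19.9, 53.04 and 31.8 CPM in WT 1 to 4. Gpx4 had 50.2, 28.2 and 30.4 CPM in KO 1 to 3, against 13.4, 55.4, 11.9 and 30.98 CPM in WT 1 to 4. The share moved between 26.4 and 81.7% of the pair, both in wild type. The sum of copy and parent was 71.9, 69.5 and 63.7 CPM in KO 1 to 3, against 36.5, 75.3, 64.96 and 62.7 CPM in WT 1 to 4, and 16.4% of the words of Gpx4-ps2 were its own. The log2 fold change was 0.01 ± 0.41 (SE) for Gpx4-ps2 and 0.37 ± 0.54 (SE) for Gpx4, neither past the test. Ftl1-ps1, named for the ferritin light chain gene, had 93.5, 46.6 and 15.6 CPM in KO 1 to 3, against 55.6, 20.5, 82.04 and 56.1 CPM in WT 1 to 4, at most 3.26% of its pair.

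Scp2-ps2, a transcribed copy of Scp2 for a sterol carrier and peroxisomal thiolase, had 21.4, 7.96 and 27.7 CPM in KO 1 to 3, against 15.8, 52.3, 41.3 and 24.1 CPM in WT 1 to 4. Scp2 had 43.9, 27.6 and 41.3 CPM in KO 1 to 3, against 28.98, 17.9, 24.6 and 27.8 CPM in WT 1 to 4. The copy passed its parent in WT 2 and WT 3 alone. As with Gpx4, the sum ranged less (1.97-fold) than the copy (6.57-fold) or the parent (2.46-fold).

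**Figure D3:**
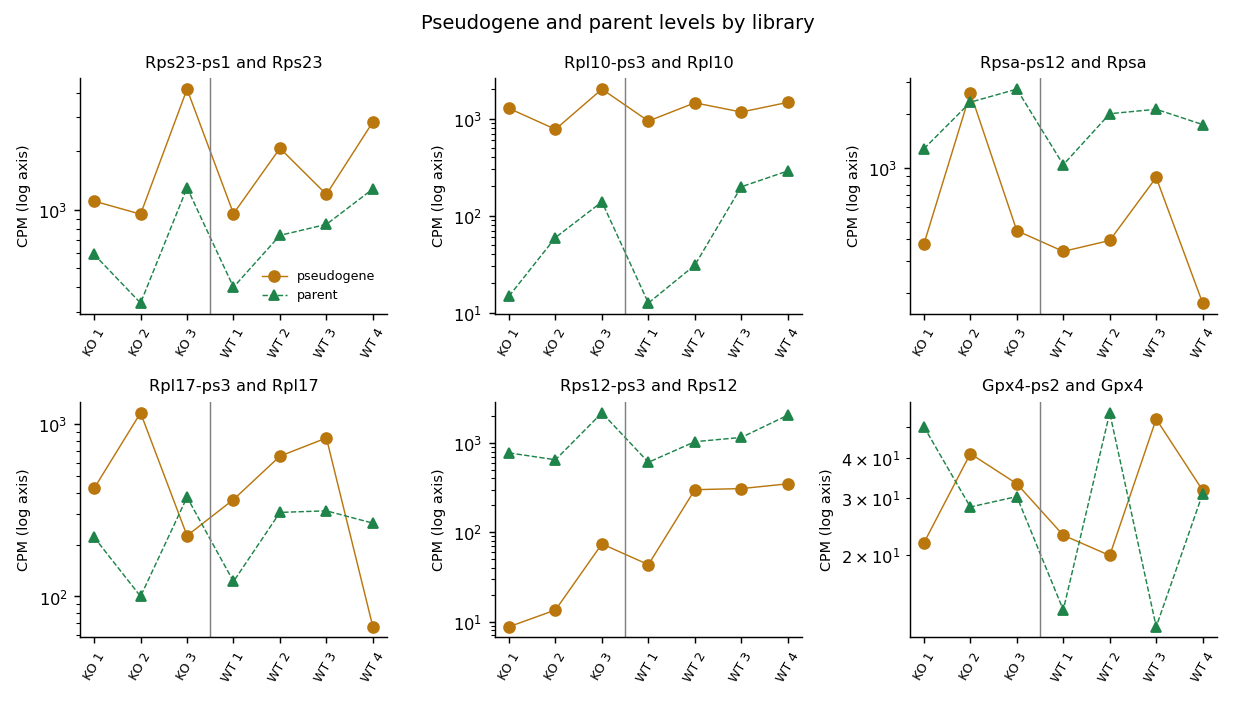
Level (CPM, log axis) of 6 pseudogenes (circles) and their parents (triangles) in the 7 libraries, knockout left of the line and wild type right of it. Rps23-ps1 follows its parent, Rpsa-ps12 is high in KO 2 where Rpsa is not highest, and Gpx4-ps2 is high in WT 3 where Gpx4 is lowest.

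Pseudogenes varied more between libraries than their parents. In the 70 pairs with counts in every library on both sides, the ratio of the highest to the lowest library was wider for the copy in 62. The median ratio was 6.96 for the copy, 2.56 for the parent and 2.51 for their sum. Low counts alone widen such a ratio. In the 29 of these pairs whose copy had 1000 or more counts, it was wider in 22, with medians of 6.39 and 2.69. The exceptions included Rpl10-ps3, Mrpl23-ps1, Gpr137b-ps and Gpx4-ps2. Likewise the median biological coefficient of variation of edgeR was 0.701 for the tested members, 0.397 for the parents and 0.477 for all tested genes. Levels were not matched between these medians, and members that share a sequence were counted separately.

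**Figure D4:**
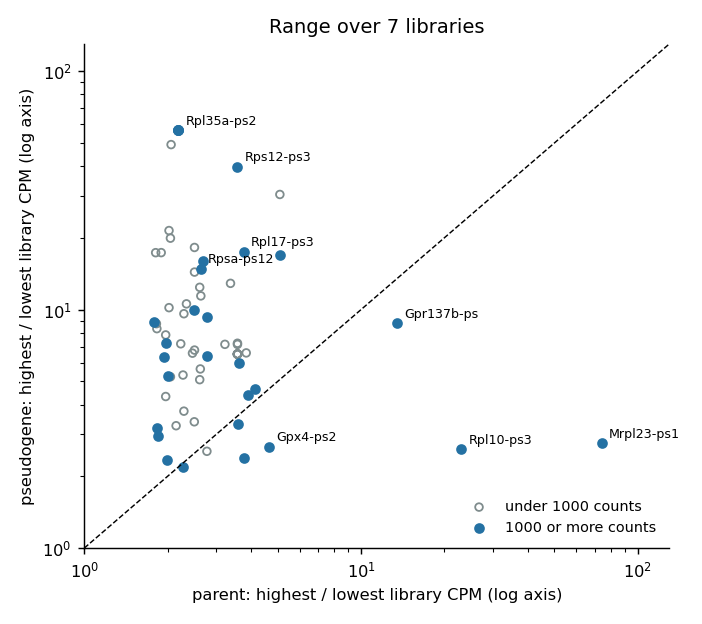
Ratio of the highest to the lowest library (CPM, log axes) of the parent and of the pseudogene, 1 point per pair with counts in all 7 libraries, filled where the pseudogene had 1000 or more counts. Points above the dashed line of equality, 62 of 70, have the wider range in the pseudogene.

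The contrast of knockout with wild type asks which of these transcripts differ in cells that lack Alox15. No member passed. Of the 169 members 106 had enough counts to be tested and 63 did not. With edgeR's quasi-likelihood test and Benjamini-Hochberg adjustment over all 12506 genes tested, 0 members were called at an adjusted p under 0.05, against 0.0% of all genes. At an unadjusted p under 0.05 there were 3 members (2.83%), all lower in knockout, against 1.23% of all genes (0.784% lower and 0.448% higher). DESeq2 called 0 members and had 3 at an unadjusted p under 0.05, against 1.7% of all genes (0.008% called), and limma-voom called 0 and had 9, against 4.27%. Without KO 3 edgeR had 10 such members of 121 tested (8.26%), against 3.43% of all genes in that fit, and without KO 2 it had 8 of 123 (6.5%), against 1.23%. With the replicate number as a block it had 1 of 106 (0.943%), against 0.64%. In each of these 3 fits 0 genes were called (0.0%). Among the tested members 39 were lower and 67 higher in knockout, with a median log2 fold change of 0.17, against 48.6% lower and a median of 0.01 over all genes. This split rested on KO 3: without that library 72 were lower and 33 higher, with a median of -0.36. It also turned under limma-voom (56 lower and 50 higher). With the description stem as a covariate 72 were lower and 34 higher. That fit sets KO 1 alone against wild type, because KO 2 and KO 3 carry the other stem. With KO 3 included, ribosomal copies had 26 lower and 47 higher with a median of 0.23, and the others 13 lower and 20 higher with a median of 0.04. Members that share a sequence or a parent are not separate measurements in these counts, and the test's filter favours members with counts in several libraries.

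The parents did not pass either. Of 76, 75 were tested, 36 lower and 39 higher in knockout with a median log2 fold change of 0.03. With edgeR 0 were called and 0 had an unadjusted p under 0.05, the smallest being 0.0907. DESeq2 called 0 and had 0 at that level, and limma-voom called 0 and had 3.

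Of the members, Rps12-ps3 (chromosome 19, 59322290 to 59322783, plus strand) had the smallest p. It had 8.75, 13.5 and 74.004 CPM in KO 1 to 3, against 43.3, 299, 308 and 348 CPM in WT 1 to 4. WT 1 lay below KO 3, so the groups overlapped in level. The log2 fold change was -2.95 ± 0.93 (SE), unadjusted p = 0.0115, with an adjusted p of 0.99995 by edgeR. Rps12 had 772, 647 and 2168 CPM in KO 1 to 3, against 606, 1031, 1149 and 2039 CPM in WT 1 to 4, a log2 fold change of -0.01 ± 0.54 (SE). The share of the pair was 1.12, 2.04 and 3.301% in KO 1 to 3, against 6.67, 22.5, 21.1 and 14.6% in WT 1 to 4, with a half-width of at most 1.13 points, and did not overlap between the groups. The whole of Rps12-ps3 lies inside the transcript of Rps12, and 78.7% of its words also lie in Rps12l1. Rps12-ps11, of the same family, had 4, 15 and 26 counts in KO 1 to 3, against 5, 22, 12 and 6 counts in WT 1 to 4, highest in KO 3.

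Rbpj-ps3 (chromosome 6, 46529354 to 46530794, minus strand), a copy of the gene for the DNA-binding partner of Notch, had 1.36, 3.98 and 3.31 CPM in KO 1 to 3, against 24.8, 6.42, 4.37 and 13.5 CPM in WT 1 to 4. All 3 knockout libraries lay below all 4 wild-type ones, by a narrow margin. The log2 fold change was -2.08 ± 0.76 (SE), unadjusted p = 0.0216 (edgeR, adjusted p = 0.99995), and that of Rbpj was 0.08 ± 0.38 (SE). The share was 0.495, 1.05 and 1.5004% in KO 1 to 3, against 5.49, 3.63, 2.21 and 4.27% in WT 1 to 4. Rbpj-ps3 lies on the strand opposite to Cntnap2.

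Rps6-ps3, in an intron of Rab39 and named for the small subunit protein that S6 kinases phosphorylate, had 3, 0 and 0 counts in KO 1 to 3, against 4, 12, 31 and 10 counts in WT 1 to 4. With 3 counts in knockout and 57 in wild type, the ratio of knockout to wild type was 0.0691, with an exact 95% counting interval of 0.0138 to 0.212 that leaves out the spread between libraries. The unadjusted p by edgeR was 0.0327 (adjusted p = 0.99995). Rps6 had 867, 1104 and 1391 CPM in KO 1 to 3, against 572, 1421, 1509 and 1015 CPM in WT 1 to 4.

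Ndufb1-ps, named for a subunit of respiratory complex I but typed as a long noncoding RNA from a shared promoter, was next on the lower side. It had 115, 55.4 and 162 CPM in KO 1 to 3, against 98.3, 225, 154 and 405 CPM in WT 1 to 4, a log2 fold change of -0.99 ± 0.52 (SE), unadjusted p = 0.0901. The groups overlapped.

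On the higher side, Tcea1-ps1, a copy of the gene of elongation factor TFIIS, had 6.22, 14.7 and 10.9 CPM in KO 1 to 3, against 4.18, 4.698, 1.39 and 7.94 CPM in WT 1 to 4. Its log2 fold change was 1.22 ± 0.66 (SE), unadjusted p = 0.0966, and Tcea1 had 72.9, 102 and 96.98 CPM in KO 1 to 3, against 86.7, 138, 171 and 116 CPM in WT 1 to 4. Its share of the pair, 7.86, 12.6 and 10.1% in KO 1 to 3, against 4.61, 3.29, 0.808 and 6.38% in WT 1 to 4, did not overlap between groups, while its level did.

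Ppp4r1l-ps, an unprocessed pseudogene of 19 exons related to a regulatory subunit of protein phosphatase 4, had 25.1, 26.3 and 18.7 CPM in KO 1 to 3, against 16.4, 16.6, 15.9 and 12.7 CPM in WT 1 to 4. The groups did not overlap, and the log2 fold change was 0.60 ± 0.33 (SE), unadjusted p = 0.104. None of its words lay in the transcript of another annotated gene.

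The 4 identical copies Rpl35a-ps2, Rpl35a-ps3, Rpl35a-ps4 and Rpl35a-ps6, of a large subunit protein gene, had 34.02, 4.901 and 278 CPM in KO 1 to 3, against 40.6, 7.52, 7.15 and 45.8 CPM in WT 1 to 4 each. KO 3 stood far above the rest, and the log2 fold change of 2.07 ± 1.15 (SE), unadjusted p = 0.106 turned to -0.40 without that library. Rpl35a had 1230.0, 1327 and 1937 CPM in KO 1 to 3, against 887, 1822, 1811 and 1776 CPM in WT 1 to 4.

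Non-overlapping levels were found for 5 of the 106 tested members (4.72%), 2 lower (1.89%) and 3 higher (2.83%) in knockout, against 3.13% of all genes, 1.57% in each direction. The lower ones were Rbpj-ps3 and Rps6-ps3 and the higher ones Ppp4r1l-ps, Rpl35a-ps5 and Ybx1-ps2. Rpl35a-ps5 had 10.7, 7.66 and 7.595 CPM in KO 1 to 3, against 6.87, 6.58, 5.76 and 0 CPM in WT 1 to 4. Ybx1-ps2, a copy of the gene of a Y-box RNA-binding protein, had 4.28, 3.98 and 4.28 CPM in KO 1 to 3, against 1.195, 3.602, 0.596 and 3.44 CPM in WT 1 to 4. These values lay close together at the edge between the groups, and the log2 fold changes were 0.84 ± 0.96 (SE), unadjusted p = 0.401, and 0.91 ± 0.88 (SE), unadjusted p = 0.327. Among the 63 members not tested, Rpl28-ps3 and Cdk3-ps did not overlap either, with no background rate to set beside them. Rpl28-ps3 had 4.86, 1.23 and 9.54 CPM in KO 1 to 3, against 1.195, 0.4698, 0.199 and 0 CPM in WT 1 to 4. Cdk3-ps had 1.17, 1.84 and 1.56 CPM in KO 1 to 3, against 0, 0.9396, 0 and 0 CPM in WT 1 to 4. For Rpl28-ps3 and Cdk3-ps alike, the lowest knockout and the highest wild-type library held equal, low counts. Scaling to library size alone set these libraries apart. Of the shares of the pair, which were not tested, 4 of 149 were lower in knockout without overlap (Rps12-ps3, Rbpj-ps3, Rps6-ps3 and Rpl13-ps3) and 2 higher (Tcea1-ps1 and Rpl28-ps3). No background rate was worked out for the shares, so how many separate the groups is a description only. For Rpl13-ps3 the share was 0, 0 and 0.0371% in KO 1 to 3, against 0.466, 0.05798, 0.0445 and 0.0381% in WT 1 to 4.

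**Figure D5:**
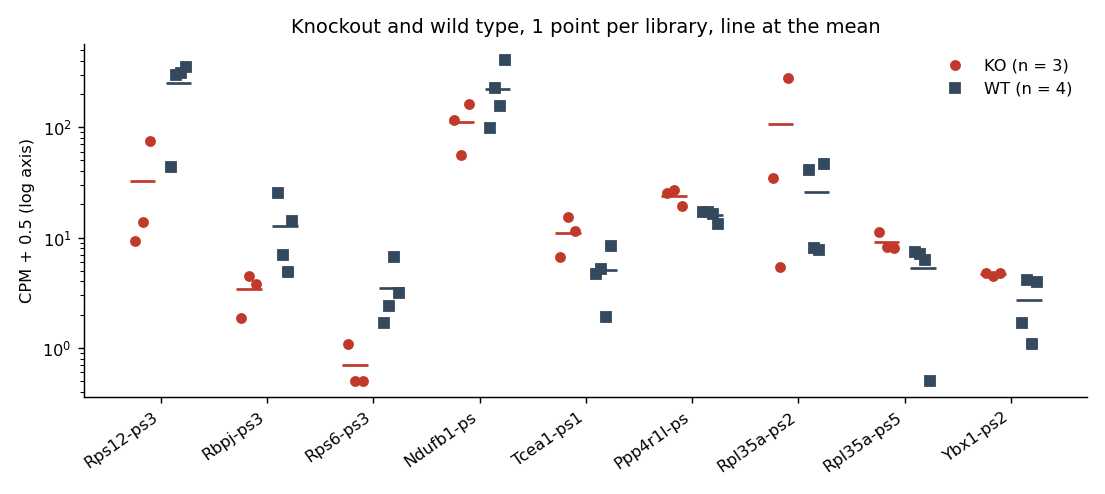
Level (CPM + 0.5, log axis) of the members with the smallest unadjusted p or without overlap, 1 point per library with a line at the mean, red circles for knockout (n = 3) left of dark squares for wild type (n = 4). Rps12-ps3 overlaps through WT 1, and Rpl35a-ps2 is high in KO 3 alone; none of the members drawn passed the test.

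The 8 members with the highest counts did not pass the test. Their log2 fold changes were 0.24 ± 0.60 for Rps23-ps1, 0.10 ± 0.39 for Rpl10-ps3, 0.34 ± 0.41 for Rpl23a-ps3, 0.45 ± 0.77 for Rpl31-ps8, 1.35 ± 0.76 for Rpsa-ps12, 0.16 ± 0.46 for Rpl39-ps, 0.34 ± 0.79 for Rpl17-ps3 and 0.05 ± 0.74 for Rpl28-ps1 (edgeR, SE), all with an adjusted p of 0.99995. Each of the 8 changed sign in at least 1 of the fits that left out a library. Rpsa-ps12, for one, was at -0.13 without KO 2.

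For the ribosomal members whose values are not given above, edgeR gave unadjusted p-values of 0.12 or more where tested. Those with 1000 or more counts were Rps15a-ps5, Rpl10a-ps1, Rpl36a-ps2, Rpl14-ps1, Rps16-ps2, Rpl38-ps2, Rpl36-ps2, Rpl9-ps6, Rps2-ps6 and Rpl3-ps1. Among them Rps15a-ps5 had 365, 377 and 230.0 CPM in KO 1 to 3, against 187, 287, 256 and 59.04 CPM in WT 1 to 4, and its share of the pair was 25.4, 27.1 and 8.44% in KO 1 to 3, against 17.2, 15.1, 14.4 and 3.4% in WT 1 to 4. Both overlapped between the groups. Those with 100 to under 1000 counts included Rps15a-ps6, Rps13-ps1, Rps27a-ps2, Rps26-ps1, Rpl36a-ps3, Rps27a-ps1, Rpl18-ps2, Rpl7-ps7, Rps2-ps10, Rpl34-ps1, Rps6-ps4, Rps10-ps1, Rps23-ps2, Rps6-ps1, Rpl36-ps12, Rpl36-ps3, Rpl18-ps1, Rps12-ps20, Rps12-ps21, Rpl17-ps9, Rps13-ps2, Rpsa-ps2, Rpl21-ps14, Rpl21-ps6, Rpl19-ps11, Rpl30-ps8, Rps12-ps5, Rpl21-ps1, Rps25-ps1, Rps19-ps6, Rpl31-ps16 and Rps13-ps4. Those with 20 to 99 included Rpl31-ps11, Rps15a-ps7, Rps12-ps12, Rps12-ps13, Rps12-ps14, Rps12-ps15, Rpl23a-ps2, Rpl19-ps1, Rps19-ps3, Rps15a-ps4, Rpl31-ps9, Rps15-ps2, Rps12-ps17, Rps12-ps18, Rps12-ps6, Rpl27-ps1, Rpl36a-ps1, Rpl21-ps8, Rpl31-ps10, Rpl31-ps14, Rpl31-ps17, Rps24-ps3, Rps12-ps10, Rps12-ps16, Rps12-ps19, Rpl38-ps1, Rpl7a-ps10, Rpsa-ps10, Rpl7a-ps5, Rps15a-ps3, Rps2-ps13, Rpl5-ps2, Rps19-ps1, Rps19-ps2, Rpsa-ps1, Rpsa-ps11, Rpl30-ps3, Rpl21-ps13, Rpl19-ps12 and Rpl22-ps1.

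Beside the ribosomal copies stood 60 members with other parents. Hmgb1, a DNA-binding protein of chromatin, gave 5: Hmgb1-ps8 had 36.4, 42.9 and 5.45 CPM in KO 1 to 3, against 55.6, 9.55, 27.4 and 13.5 CPM in WT 1 to 4, and Hmgb1-ps4, Hmgb1-ps5, Hmgb1-ps6 and Hmgb1-ps7 had 44 to 89 counts each. Tmem250-ps, typed as a long intergenic noncoding RNA, had 63.96, 33.999 and 62.7 CPM in KO 1 to 3, against 37.6, 43.7, 42.9 and 33.9 CPM in WT 1 to 4. Olfr1369-ps1, named as an olfactory receptor pseudogene and typed protein-coding, had 13.8, 45.3 and 193 CPM in KO 1 to 3, against 25.4, 57.3, 24.2 and 192 CPM in WT 1 to 4. KO 3 and WT 4 were highest for Olfr1369-ps1, so neither group stood apart. Slfn10-ps, of the Schlafen family of leukocyte genes, had 9.72, 47.5 and 29.8 CPM in KO 1 to 3, against 27.2, 20.4, 20.5 and 10.6 CPM in WT 1 to 4. The remaining members with 100 or more counts were Tmem181b-ps, Mrip-ps, Hspd1-ps3, Ube2d-ps, Rhox7-ps2 and Slc2a4rg-ps, and those with 20 to 99 were Alms1-ps2, Tdg-ps, Smarca5-ps, Olfr718-ps1, Pisd-ps2, Zfp862-ps, Rbx1-ps, Pcna-ps2, Pdcd5-ps, Pisd-ps1, Sms-ps, Trmt112-ps2, Tpt1-ps3, Znf41-ps, Lgals1-ps2, Atp5l-ps1, Tas2r142-ps5, Ptges3-ps, Atp5k-ps2, H2-T-ps, Oaz1-ps, Wdr46-ps, Ppp1r2-ps4, Gmfg-ps, Uqcrh-ps1, Gstp-ps and Vma21-ps. In none of these was the unadjusted p by edgeR under 0.05 where it could be tested.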

How the data were processed

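RNA was counted in 7 libraries of mouse granulocytes, 3 Alox15 knockout and 4 wild type, grouped by their labels. Column purification with DNase digestion and a QuantSeq library kit were used, per the labels' protocols. The authors deposited 1 table of raw counts per Ensembl gene. The submitters' processing notes name mm10, DESeq2 and RSEM 1.2.3 without their roles. Since RSEM estimates counts and the deposited values are whole, rounding by the authors is possible. Annotation release, strand setting and handling of reads with several matches are not given in the sources used here.

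Of 51789 genes, 51596 matched a symbol in GENCODE M21 (GRCm38, 1-based coordinates). Members and lists were chosen with earlier results of these data known. Members named in full were the 8 with the highest counts, up to 4 per direction with the smallest p, those above their parent and those whose groups did not overlap; ties are given together. Gpx4-ps2, Ftl1-ps1, Scp2-ps2 and members singled out for their sequence, position, family or detection were chosen after their values were seen.

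Knockout was compared with wild type over all 12506 genes kept by filterByExpr, which held 99.6% of counts, with edgeR 4.0.16 in R 4.3.3 (TMM scaling, robust quasi-likelihood F test, Benjamini-Hochberg adjustment, call at an adjusted p under 0.05). The p-values measure the spread between libraries, which may be technical. The test was checked on simulated counts. It recovered 41% of 4-fold, 78% of 8-fold, 88% of 16-fold and 92% of 32-fold changes, so most 4-fold changes were missed there. The changed genes were drawn from all tested genes with a mean above 8 CPM. Tested members varied more (median biological coefficient of variation 0.701, against 0.477 for all tested genes), and some lay below 8 CPM. The rates are therefore likely too high for the members. Shares of a pair and sums over members were not tested. Member transcripts were aligned to parent transcripts with blastn of BLAST+ 2.17.0, taking the best alignment, and words of 50 bases were matched exactly on the transcript strand to all 141767 GENCODE M21 transcripts. Alternatives were DESeq2 1.42.0, limma-voom (limma 3.58.1) with quality weights, other scaling (RLE, upper quartile), no filter, 5 CPM in 3 libraries, each library left out in turn, a block for the replicate number, and a covariate for the description stem. Words of 100 bases, members typed as processed only, and leaving out WT 2 and KO 3 together were chosen after seeing the data. A few members and sequence matches are counted in the totals but not reported by name here.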

Additional observations from a re-analysis of the deposited data

Results flagged for a closer look

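In the wild-type group of 4 libraries, 1 library stood far from the other 3 in 5 of the 68 comparisons of this kind over named members, parents and sums; chance gives about 1 in 20 such groups. Knockout, with 3 libraries, could not be looked at in this way. WT 1 was the low library in 3 of the 5. Rps12-ps3 had 43.3 CPM in WT 1, against 299 to 348 CPM in the other 3 wild-type libraries. Rpl35a had 887 CPM in WT 1, against 1776 to 1822 CPM. Rpl39 had 518 CPM in WT 1, against 1759 to 1865 CPM. The summed ribosomal protein parents were also lowest in WT 1, at 34216 CPM. Rpl35a-ps5 had 0 CPM in WT 4, against 5.76 to 6.87 CPM. The share of Rpl17-ps3 in its pair was 20.02% in WT 4, against 68.0 to 75.0%.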

How the results depend on the processing

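No member and no parent was called under any alternative run, and the smallest adjusted p of a member was 0.715 (DESeq2), against 0.99995 in edgeR with TMM. DESeq2 called 1 of 12506 genes, Impdh2-ps, the row left out of the members. Members at an unadjusted p under 0.05 ran from 1 of 106 tested (replicate block, 0.64% of all genes) to 10 of 121 (without KO replicate 3, 3.43% of all genes), against 3 of 106 (1.23%). Over 22 named log2 fold changes, 281 of 325 values under the alternatives kept their direction and 44 reversed it, in 13 genes; the cause was not tested. Under limma-voom, Rps23-ps1 was at -0.45, Rpl10-ps3 at -0.34, Rpl23a-ps3 at -0.17, Rpl31-ps8 at -0.72, Rpl39-ps at -0.30, Rpl28-ps1 at -1.04 and Gpx4-ps2 at -0.053. With the description stem as a covariate, KO 1 alone was compared with wild type. In that fit Rps23-ps1 was at -0.67, Rpl23a-ps3 at -0.020, Rpl31-ps8 at -0.69 and Rpsa-ps12 at -0.26. Rpl39-ps was at -0.71, Rpl17-ps3 at -0.18, Rpl28-ps1 at -0.41 and Gpx4-ps2 at -0.55. Rps12 was at 0.014 with DESeq2 and with RLE factors, at 0.012 with no filter, at 0.025 with upper-quartile factors and at 0.20 with the replicate block. Leaving out each library in turn, the log2 fold change ran from -0.85 to 0.60 for Rps23-ps1, -0.36 to 0.38 for Rpl10-ps3, -0.26 to 0.61 for Rpl23a-ps3, -1.16 to 0.97 for Rpl31-ps8, -0.13 to 1.92 for Rpsa-ps12, -0.66 to 0.45 for Rpl39-ps, -0.56 to 0.74 for Rpl17-ps3, -1.10 to 0.53 for Rpl28-ps1, -0.40 to 2.64 for Rpl35a-ps3 and Rpl35a-ps4, -0.21 to 0.37 for Gpx4-ps2, -0.83 to 0.41 for Rps12 and -0.15 to 0.36 for Rbpj. The lower direction of Rps12-ps3, Rbpj-ps3 and Rps6-ps3 in knockout held in each alternative that could test them. Same-numbered libraries correlated at 0.39, -0.24 and -0.19 in their deviations, against -0.52 to 0.50 for libraries with different numbers. So few pairs cannot decide whether the numbers pair the samples. With the replicate block 0 genes were called, 80 genes had an unadjusted p under 0.05, and Rpl17-ps3 was at -0.24. The summed member level and the median share of the pair moved by less than the spread between libraries. Depth limits the 85 members with 20 to 99 counts, most of which are at 0 in some library.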

Other observations

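Introns of genes on the same strand held 21 members, some of them inside genes of leukocytes. Rpl18-ps1 lies in an intron of Ctla4, the gene of a T cell inhibitory receptor, and had 272 counts. Hmgb1-ps5 lies in an intron of Ctss, the gene of cathepsin S, and had 2.72, 2.14 and 1.75 CPM in KO 1 to 3, against 1.195, 0.4698, 0 and 1.85 CPM in WT 1 to 4. Reads of the host's unspliced RNA and of such a member cannot be told apart where they share sequence. Genes with other names in the annotation are processed copies as well. GENCODE M21 types 8556 genes as processed pseudogenes, transcribed ones included, and 629 of them had 20 or more counts, so the named members are a minority of the processed copies with counts.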
